A study of Mus musculus with 8 samples.

Results

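The mu-class glutathione S-transferases of the mouse are 7 genes, Gstm1 to Gstm7, that lie side by side on chromosome 3. They were taken by name, and are 7 of the 34547 genes whose transcripts were quantified. Their difference between the Nudt7 and GFP livers was known when the family was chosen. Fold changes of the members are therefore given as a description, with their errors and with no test.

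The RNA came from whole livers of C57BL/6J mice, 4 given an adeno-associated virus (AAV) with mouse Nudt7 and 4 given one with GFP, a fluorescent protein that served as the control transgene. Nudt7 is a peroxisomal enzyme that breaks down coenzyme A and its acyl esters. Both groups had the virus, at a dose of 2.5e+11 particles in 150 µl, by tail vein when 8 weeks old. All 8 animals had gone without food for 24 h when the liver was removed 3 to 4 weeks after injection, at 11 to 12 weeks of age. The sources used here do not give the promoter in the vector, the sex of the animals or any batch or pairing. The study as analysed here has no uninjected or fed animals.

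Glutathione S-transferases join the tripeptide glutathione to electrophilic compounds, such as epoxides and reactive carbonyls, which the cell then exports or breaks down to mercapturates. The mu class is 1 of several cytosolic classes, beside alpha, pi and theta. Its enzymes work as homodimers or heterodimers of closely similar subunits. In the liver mu-class genes are known as targets of the transcription factor NRF2, which answers oxidants, and of the xenobiotic receptor CAR. They are also known to be expressed more in hepatocytes near the central vein than in those near the portal tract.

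The genes span 149.1 kb (GRCm38, chromosome 3, 107895821 to 108044894). In chromosome order they are Gstm5 (ENSMUSG00000004032.10, 107895821 to 107898686), Gstm7 (ENSMUSG00000004035.12, 107926334 to 107931817), Gstm6 (ENSMUSG00000068762.11, 107938847 to 107943749) and Gstm3 (ENSMUSG00000004038.9, 107963696 to 107969283). Then follow Gstm2 (ENSMUSG00000040562.12, 107981702 to 107986453), Gstm1 (ENSMUSG00000058135.12, 108012255 to 108017973) and Gstm4 (ENSMUSG00000027890.17, 108040408 to 108044894). Gstm5 is on the plus strand and the other 6 are on the minus strand. The main transcript of each gene has 8 exons. Its coding sequence is 654 bases long in 6 members and 672 bases in Gstm5.

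The members are close copies, and how close decides how far reads can be told apart. The opening of each coding sequence shows this, from the GENCODE M21 transcripts of GRCm38. Each line holds 60 coding bases from the start codon on, except for Gstm5, whose line starts at coding base 10 because it has 9 extra coding bases before the stretch that pairs with the others. Capitals mark bases unlike Gstm1.
Gstm1: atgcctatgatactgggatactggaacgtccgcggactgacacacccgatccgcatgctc
Gstm2: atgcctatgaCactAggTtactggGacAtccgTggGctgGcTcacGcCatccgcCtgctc
Gstm3: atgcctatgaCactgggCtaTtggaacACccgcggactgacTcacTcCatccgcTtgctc
Gstm4: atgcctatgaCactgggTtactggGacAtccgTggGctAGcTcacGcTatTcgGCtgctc
Gstm5: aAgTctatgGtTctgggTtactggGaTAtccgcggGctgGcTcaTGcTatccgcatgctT
Gstm6: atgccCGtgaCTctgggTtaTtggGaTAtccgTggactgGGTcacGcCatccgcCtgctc
Gstm7: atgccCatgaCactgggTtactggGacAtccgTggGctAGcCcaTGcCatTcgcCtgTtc

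Gstm3 differed from Gstm1 at 9 of these 60 bases, Gstm2 at 12, Gstm4 at 14, Gstm5 at 15, and Gstm6 and Gstm7 at 16 each. Over the whole coding sequence Gstm1 and Gstm3 were the most alike pair, with 89.4% identical bases. Gstm2 and Gstm6 came next with 86.1%. Gstm5 was the most distant member, with 68.0% to 71.1% identity to the other 6. The longest stretch without a difference between Gstm1 and Gstm3 was 112 bases, over coding bases 389 to 500 in exons 6 and 7. Gstm3 and Gstm6 had a longer one, of 125 bases over coding bases 169 to 293 in exons 3 to 5. A read from inside either stretch has no base that tells its 2 genes apart, and both are printed here for that reason.
Gstm1 and Gstm3: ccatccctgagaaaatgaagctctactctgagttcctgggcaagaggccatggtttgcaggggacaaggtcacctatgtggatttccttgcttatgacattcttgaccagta
Gstm3 and Gstm6: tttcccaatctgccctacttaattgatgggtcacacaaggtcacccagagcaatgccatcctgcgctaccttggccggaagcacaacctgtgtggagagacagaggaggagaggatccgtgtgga

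Of all 31-base words in the annotated transcripts of Gstm3, 22.4% also occurred in another member, and for Gstm1 the share was 15.4%. It was 5.33% for Gstm6, 4.17% for Gstm2, 2.97% for Gstm4, 1.52% for Gstm7 and 0.0% for Gstm5. The Gstm3 values are thus uncertain, since the member that shares most of these words with it, Gstm1, is far more abundant. Genes outside the family shared more for some members, with 31.1% of the words of Gstm3, 26.2% of those of Gstm1, 10.5% of those of Gstm2 and 6.71% of those of Gstm6. They shared less for Gstm4 (0.35%) and Gstm7 (1.10%), and 0.0% for Gstm5. The outside genes with at least 20 shared words were given few reads, 0 to 1 per library in each of the pseudogenes Gm12494 and Gm12499 (inside the cluster), Gm8834 and Gstm2-ps1, and 0 to 2 in the protein-coding Gm6665. The summed reads of the 7 genes do not depend on how reads were divided among the 7, though they do on how reads were divided with outside genes, and the family sum is given beside the members.

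Nudt7 itself, in CPM (reads scaled to the size of the library), was at 1301, 1599, 3569 and 1555 in the 4 Nudt7 livers and at 60.7 to 79.9 in the GFP livers, with reads from the transgene and from the mouse gene counted together. Libraries held 11187806 to 23640734 estimated reads. Hepatocyte markers were abundant in every library, 5 of 5 detected and 50237 to 82382 CPM in sum. Nudt7 replicate 3 stood apart, at 63.1 on the first principal component (36.3% of the variance) against −19.9 to 2.83 for the other 7 livers. Genes with a short effective length as given by Salmon, up to 1572 bases, had a median 0.42 log2 units higher in it than in the other Nudt7 livers. All 7 members are in that class. The 5 red blood cell markers summed to 1813 CPM in Nudt7 replicate 3 and to 303 to 642 CPM elsewhere. The part of either in the members' differences was not tested, and values without this library are given for the family, for each gene list, and for other named genes where they turn in sign or differ by over 1.5 times. In bulk tissue, fewer cells of a type and less RNA per cell cannot be told apart.

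Gstm1, the main hepatic mu-class subunit, dominated the family. In TPM, a level scaled for transcript length and for the library, it was at 514, 469, 665 and 484 in Nudt7 replicates 1 to 4. In GFP replicates 1 to 4 it was at 308, 404, 465 and 323 TPM. The groups did not overlap, though the highest GFP liver came within a few TPM of the lowest Nudt7 liver. The means were 533 ± 89.9 and 375 ± 73.1 TPM (SD, n = 4 each), and Gstm1 ranked 214 by mean level among 22828 genes with any TPM.

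The next level was far below. Gstm4 averaged 29.3 TPM over the 8 livers, 15.5-fold less than Gstm1, followed by Gstm2 at 24.9, Gstm7 at 20.8 and Gstm6 at 19.4 TPM. These 4 were not separated by their spread as neighbours in the order. Gstm4 was above Gstm2 in 7 of 8 livers, Gstm2 above Gstm7 in 6, and Gstm7 above Gstm6 in 5. Gstm4 was above both Gstm7 and Gstm6 in 8 of 8 livers. The order of Gstm7 and Gstm6 differed between the groups. Their means were 19.0 and 13.6 TPM in GFP livers, and 22.6 and 25.1 TPM in Nudt7 livers. Gstm3 at 4.02 and Gstm5 at 3.94 TPM closed the order and were not separated from each other, with Gstm3 higher in 5 of 8 livers. Gstm6 exceeded Gstm3 in 8 of 8 livers, by 4.82-fold on average.

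Gstm4 was at 35.2, 38.3, 45.6 and 29.4 TPM in the Nudt7 livers. In the GFP livers it was at 21.1, 22.1, 23.6 and 19.0 TPM. The 4 Nudt7 livers were all above the 4 GFP livers, with means of 37.1 ± 6.78 and 21.5 ± 1.92 TPM (SD, n = 4 each).

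Gstm2 was tightly grouped in TPM in the Nudt7 livers, at 31.2, 29.3, 29.4 and 29.4 TPM. It was at 19.1, 21.7, 15.8 and 23.0 TPM in the GFP livers. The groups did not overlap, and the means were 29.8 ± 0.94 and 19.9 ± 3.17 TPM (SD, n = 4 each). In CPM the Nudt7 livers were at 19.9, 18.6, 26.7 and 19.4, with an SD of 3.73 against 2.54 in the GFP livers.

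Gstm6 was at 27.3, 23.1, 27.8 and 22.4 TPM in the Nudt7 livers. Its GFP livers were at 10.2, 14.1, 20.1 and 10.1 TPM. GFP replicate 3 came closest to the Nudt7 livers but stayed below all 4. The means were 25.1 ± 2.77 and 13.6 ± 4.70 TPM (SD, n = 4 each).

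Gstm7 differed least. It was at 21.03, 24.1, 18.6 and 26.9 TPM in the Nudt7 livers and at 20.1, 19.9, 19.2 and 16.7 TPM in the GFP livers. The groups overlapped in TPM because Nudt7 replicate 3 fell below 3 of the GFP livers. On the CPM scale, whose scaling per library differs from that of TPM, the same liver was at 20.8. The Nudt7 livers ran from 16.2 to 22.7 CPM and the GFP livers from 14.1 to 15.9 CPM, without overlap.

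Gstm3, the near copy of Gstm1, was at 6.69, 3.58, 6.86 and 3.84 TPM in the Nudt7 livers and at 2.03, 2.67, 4.07 and 2.42 TPM in the GFP livers. Replicates 1 and 3 were the high Nudt7 livers, and the other pair fell below GFP replicate 3, so that the groups overlapped. Gstm5, the divergent member on the opposite strand, was at 5.25, 3.12, 6.53 and 4.14 TPM against 3.16, 2.32, 3.51 and 3.50 TPM. Nudt7 replicate 2 lay within the range of the GFP livers. These low levels rest on 23 to 93 reads per library for Gstm3 and 18 to 56 for Gstm5, against 3554 to 9188 for Gstm1, so their values carry the most counting error.

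Summed over the 7 genes, family TPM was 641, 591, 800 and 600 in the Nudt7 livers and 384, 487, 551 and 398 in the GFP livers. The groups did not overlap, with means of 658 ± 97.1 and 455 ± 78.6 TPM (SD, n = 4 each). Without Gstm1, the other 6 genes summed to 127, 121, 135 and 116 TPM against 75.7, 82.8, 86.2 and 74.8 TPM. In TPM that sum was more tightly grouped than Gstm1 itself, at 125 ± 7.97 and 79.9 ± 5.56 TPM (SD, n = 4 each), a ratio of means of 1.56 against 1.42 for Gstm1. It was not taken in CPM, a scale on which Gstm4, the most abundant of the 6, was at 36.1, 38.0, 64.8 and 31.3 in the Nudt7 livers.

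**Figure D1:**
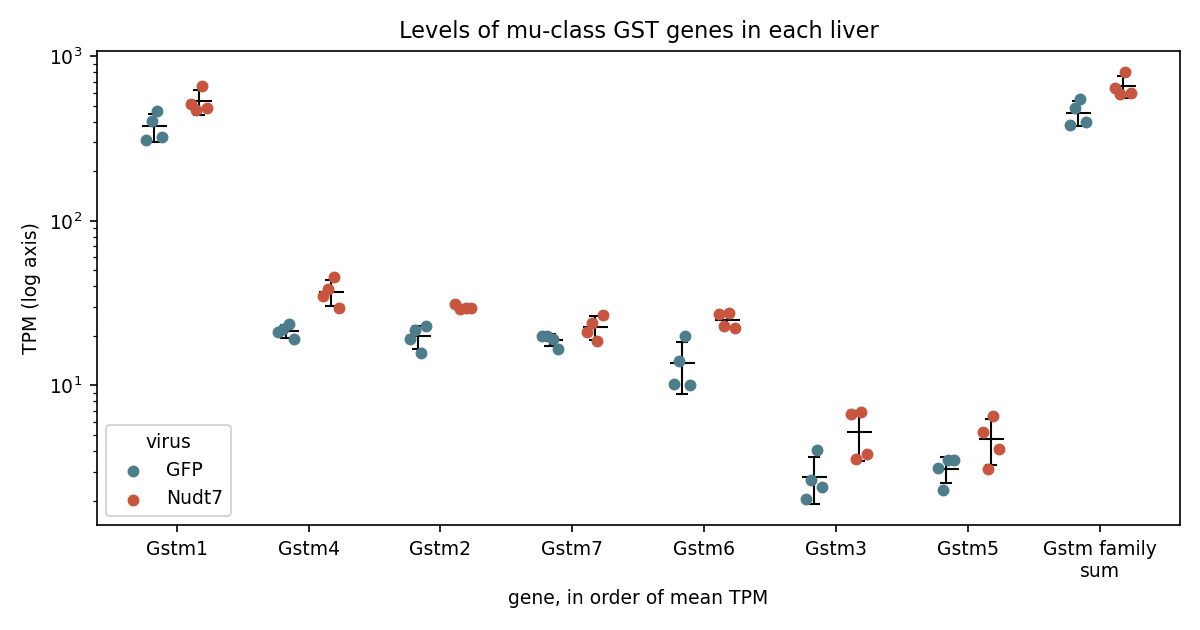
Level of each mu-class gene and of the family sum in each liver (points; TPM on a log axis), with GFP livers to the left and Nudt7 livers to the right of each tick, and mean ± SD as the black bars. Gstm1 stands 15.5-fold above the next gene, Gstm3 and Gstm5 lie lowest, and the groups are apart for Gstm1, Gstm2, Gstm4, Gstm6 and the sum.

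The make-up of the family was led by Gstm1 in both groups. Gstm1 held 80.9% ± 1.60 of family TPM with Nudt7 and 82.2% ± 1.81 with GFP (SD, n = 4 each). Gstm6 held 3.84% ± 0.33 against 2.93% ± 0.50, and Gstm4 5.65% ± 0.66 against 4.78% ± 0.52 (SD, n = 4 each). Gstm7 went the other way, with 3.54% ± 0.96 against 4.25% ± 0.73 (SD, n = 4 each). The ranges of the share overlapped between the groups for each of the 7 members. For Gstm6 the overlap came from 1 GFP liver, replicate 3 at 3.64%, against 3.47% to 4.26% in the Nudt7 livers and 2.54% to 2.90% in the other GFP livers.

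Each gene was read mostly through 1 transcript. Gstm1-201 (1289 bases) held 92.3% of Gstm1 TPM in Nudt7 livers and 92.8% in GFP livers. For Gstm2-201 the shares were 93.5% and 92.5%, and for Gstm6-205 93.7% and 89.9%. Gstm4 was the most divided, with 81.3% ± 12.4 and 80.2% ± 9.58 in Gstm4-201 and 16.6% and 18.0% in Gstm4-203 (SD, n = 4 each). A short non-coding Gstm1 transcript, Gstm1-204 (597 bases), averaged 27.5 ± 16.9 TPM in Nudt7 livers and 16.3 ± 2.18 TPM with GFP (SD, n = 4 each), and its Nudt7 spread came from replicate 4 at 51.4 TPM. Of 29 annotated transcripts of the family, 25 had reads in at least 1 library.

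Fold changes came from edgeR's quasi-likelihood fit over all 13678 genes with enough reads, all 7 members included. Gstm3 had a log2 fold change of 1.11 (SE 0.33), Nudt7 against GFP, a 2.15-fold higher level. Gstm6 was at 1.09 (SE 0.23), or 2.13-fold, and Gstm4 at 0.97 (SE 0.20), or 1.96-fold. Gstm2 at 0.75 (SE 0.17), Gstm5 at 0.72 (SE 0.30) and Gstm1 at 0.70 (SE 0.22) formed a middle group of 1.63-fold to 1.68-fold. Gstm7 was lowest at 0.38 (SE 0.13), or 1.30-fold. The 95% intervals ran from 0.06 to 1.38 for Gstm5, from 0.53 to 1.42 for Gstm4, from 0.59 to 1.59 for Gstm6 and from 0.09 to 0.67 for Gstm7. Those of Gstm6 and Gstm7 overlapped little, and the difference between members was not tested. The family sum, fitted as 1 row in place of the 7 genes, had a log2 fold change of 0.73 (SE 0.21; 95% interval 0.26 to 1.19), or 1.65-fold.

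Set against the whole table, 7 of 7 members had a positive log2 fold change, as did 49.8% of all genes tested. Their median was 0.75 and that of all genes −0.0009. In CPM, 5 of the 7 members (all but Gstm3 and Gstm5) had groups that did not overlap, with Nudt7 higher, against 2.74% of all genes tested (5.75% in either direction). By edgeR with a Benjamini-Hochberg adjusted threshold of 0.05, 0 of the 7 members passed, where 16 of 13678 genes (0.117%) passed in all. With no adjustment, at p under 0.05, 7 members passed, all as higher, and so did 8.28% of all genes, 4.25% as higher and 4.03% as lower. DESeq2 at the same adjusted threshold took 3 members (Gstm2, Gstm4 and Gstm6) and 1.11% of its genes, 0.633% as higher, and limma-voom took 0 members and 0.0731% of genes. Since the family was chosen on this contrast, nothing is read from these counts.

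Leaving out Nudt7 replicate 3 lowered each of these values and left the family higher in Nudt7 livers. The family log2 fold change fell from 0.73 to 0.47 (95% interval 0.21 to 0.73), or 1.38-fold. Gstm1 went from 0.70 to 0.43, Gstm3 from 1.11 to 0.80, Gstm4 from 0.97 to 0.71 and Gstm5 from 0.72 to 0.44, the last with an interval from −0.16 to 1.03. Gstm2 at 0.63, Gstm6 at 0.92 and Gstm7 at 0.36 moved less. In that library the log2 level of Gstm1 was 0.91 above the mean of the other 3 Nudt7 livers, that of Gstm3 1.03 and that of Gstm6 0.64. Gstm7 was 0.13 above that mean, with replicate 4 higher still at 22.7 CPM. For the 2451 genes of like effective length the median was 0.40. Those genes had a median log2 fold change of 0.10 with the library and −0.01 without it. With the trend in effective length removed from each library, a setting chosen after seeing the data, the family was at 0.61 (95% interval 0.29 to 0.92).

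**Figure D2:**
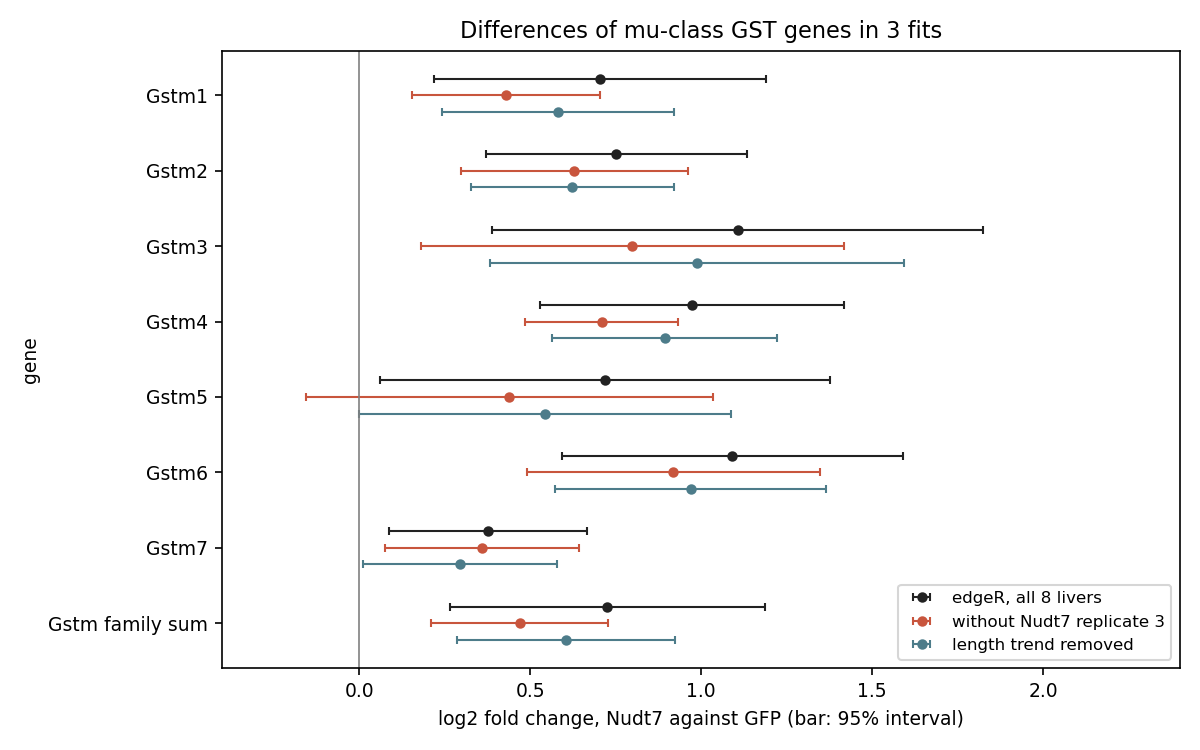
Log2 fold change of each member and of the family sum, Nudt7 against GFP, with 95% intervals, from 3 fits across all genes: edgeR on 8 livers, without Nudt7 replicate 3, and with the length trend removed. The points are above 0 in each fit; only the Gstm5 intervals reach below 0, in the latter 2 fits.

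Markers of other cell types were looked at because whole liver holds them. Of the 6 cholangiocyte markers 5 were detected in all 8 livers and none was at 0 throughout, and their sum was 31.8 to 42.5 CPM in Nudt7 livers against 17.4 to 29.4 CPM in GFP livers. The 6 sinusoidal endothelial markers, all detected in the 8 livers, moved the other way, with 357 to 390 CPM against 409 to 444 CPM. Both sums were separate between the groups, and their part in the members' differences was not tested. The sums for Kupffer cells and macrophages (6 of 6 markers detected, 86.0 to 172 CPM in Nudt7 livers and 106 to 157 CPM in GFP livers) and for stellate cells and fibroblasts (6 of 6 detected, 203 to 233 and 196 to 237 CPM) overlapped. So did those for lymphocytes (4 of 6 detected in all livers, 8.30 to 16.0 and 6.95 to 12.6 CPM) and for adipocytes and pancreas (3 of 6 detected in all livers, Pnlip at 0 throughout, 5.15 to 6.27 and 4.01 to 5.30 CPM).

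The members moved together across livers to differing degrees. Over the 8 livers, log2 CPM of Gstm1 followed that of Gstm3 with Pearson r = 0.94, of Gstm4 with r = 0.94 and of Gstm6 with r = 0.93. For deviations from the group means these were 0.88, 0.89 and 0.89, and without Nudt7 replicate 3 they were 0.90, 0.83 and 0.98 over 7 livers. Gstm7 was the member least like the others, with r from 0.47 to 0.78 over the 8 livers and from −0.28 to 0.30 within groups. Between Gstm2 and Gstm6 r was 0.71 over the 8 livers and −0.07 within groups. These are descriptions over the same libraries, which differ in depth and in length trend, and Gstm1 and Gstm3 also share sequence. The part of these in r was not tested.

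Outside the family 12832 genes were searched, and those named are the highest by r, over only 8 livers and with no test. The gene whose levels most resembled the family sum was Agmat, the gene for agmatinase, with r = 0.996 over 8 livers and 0.992 within groups. Its own log2 fold change was 0.51 (SE 0.16). Psme1, a proteasome activator subunit, followed at r = 0.982, then Slc25a10, the mitochondrial dicarboxylate carrier, at 0.977. Snrnp40, a spliceosome protein, stood at 0.974, Serpinb9, a serpin that inhibits granzyme B, at 0.973, and Prdx6, a peroxiredoxin, at 0.972. The levels of Snrnp40 and Serpinb9 were low, with means of 3.85 and 8.27 CPM. Without Nudt7 replicate 3 these r values ran from 0.909 for Serpinb9 to 0.988 for Agmat over 7 livers. Of the 6 genes, 5 belong to the class of short effective length and Serpinb9 to the middle class.

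By the same measure the nearest genes were found for the 5 members with a mean of at least 10 TPM, which leaves out Gstm3 and Gstm5. Gstm1 was nearest to Agmat (r = 0.995) and Psme1 (0.988), the pair found for the sum. Since Gstm1 makes up most of the sum, this is not a separate result. Gstm2 was nearest to Dazap2 (0.981) and Mtap (0.978), the latter the gene for methylthioadenosine phosphorylase. Gstm4 was nearest to Eci2 (0.980), an enoyl-CoA isomerase of fatty acid oxidation, and Serpinb9 (0.978). For Gstm6 they were Cyp2c23 (0.982), a cytochrome P450, and Gamt (0.981), which makes creatine. Gstm7, with Pmf1 (0.936) and Ces1e (0.926), a carboxylesterase, had the lowest r values of these 5.

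The sequence just upstream of each gene was compared because 6 members share a strand and a neighbourhood. The lines give 100 bases before the start of the main transcript on GRCm38.p6, read 5′ to 3′ on the strand of the gene, from RefSeq's promoter windows, in which all 7 members were found by symbol, with 12 starts. Capitals mark CCAAT boxes (CCAAT), GC boxes (GGGCGG) and the core of the antioxidant response element, to which NRF2 binds (TGACNNNGC), on either strand. In Gstm4 a CCAAT box and a GC box overlap. Matches further upstream, or between this start and RefSeq's, lie outside the printed bases.
Gstm1, chr3:108017974-108018073, minus: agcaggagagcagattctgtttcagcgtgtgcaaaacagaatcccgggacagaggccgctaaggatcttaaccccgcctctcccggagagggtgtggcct
Gstm2, chr3:107986454-107986553, minus: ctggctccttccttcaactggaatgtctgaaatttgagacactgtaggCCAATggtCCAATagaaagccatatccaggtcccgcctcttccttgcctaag
Gstm3, chr3:107969284-107969383, minus: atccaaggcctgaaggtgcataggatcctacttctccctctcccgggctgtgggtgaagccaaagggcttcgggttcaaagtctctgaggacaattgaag
Gstm4, chr3:108044895-108044994, minus: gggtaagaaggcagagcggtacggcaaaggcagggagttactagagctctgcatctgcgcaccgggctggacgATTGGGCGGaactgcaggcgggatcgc
Gstm5, chr3:107895721-107895820, plus: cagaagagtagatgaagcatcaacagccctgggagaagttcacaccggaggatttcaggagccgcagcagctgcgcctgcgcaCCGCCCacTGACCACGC
Gstm6, chr3:107943750-107943849, minus: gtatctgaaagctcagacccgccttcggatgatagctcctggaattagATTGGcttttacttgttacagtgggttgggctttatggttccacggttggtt
Gstm7, chr3:107931818-107931917, minus: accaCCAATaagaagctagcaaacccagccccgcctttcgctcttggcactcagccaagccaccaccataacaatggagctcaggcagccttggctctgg

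Upstream, the longest identical run shared by a pair was 7 to 10 bases, against 14 to 125 bases in the coding sequences. The upstream windows are shorter and were not aligned, so no identity is given for them. For each member the 250 bases before the RefSeq start nearest its main transcript were searched on either strand. A CCAAT box was found for 5 members (Gstm1, Gstm2, Gstm4, Gstm6 and Gstm7) and in 33.8% of all 32851 promoter windows, which cover every listed start. A GC box was found for 3 members (Gstm3, Gstm4 and Gstm5), for Gstm7 before its other start, and in 32.7% of windows. The antioxidant response element core was found for Gstm5, in the stretch TGACCACGC, for Gstm7 before its other start, and in 10.2% of windows. A TATA box (TATAAA) was found for Gstm7, for Gstm1 before its other start, and in 12.4% of windows. AGGTCA, the core motif of nuclear receptors, was found before 0 of the 12 member starts and in 14.0% of windows. A match is a run of letters only, and the absence of one says that those letters are not in this window.

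Genes around the cluster were mixed in direction. Of the 13 protein-coding neighbours within 250 kb of the outermost members 10 were tested, 4 had a positive and 6 a negative log2 fold change, and the median was −0.09. By edgeR 0 passed, and at an unadjusted p under 0.05 only Amigo1, an adhesion molecule gene, passed, at −0.38 (SE 0.16; adjusted p = 0.573). Of all genes tested, 0.117% passed by edgeR and 8.28% at the unadjusted threshold. The nearest on the Gstm5 side, Eps8l3, was at 0.11 (95% interval −0.74 to 0.96). Ampd2, an AMP deaminase gene and the nearest tested on the Gstm4 side, was at 0.07 (95% interval −0.25 to 0.39). Psma5, a proteasome subunit gene, had the highest value at 0.51 (SE 0.29; adjusted p = 0.665), with Nudt7 replicate 3 at 157 CPM against 51.4 to 76.7 CPM in the other 7 livers. Without that library Psma5 was at 0.07, and 4 of the 10 neighbours were positive with a median of −0.07. DESeq2 and limma-voom also called 0 of these neighbours.

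**Figure D3:**
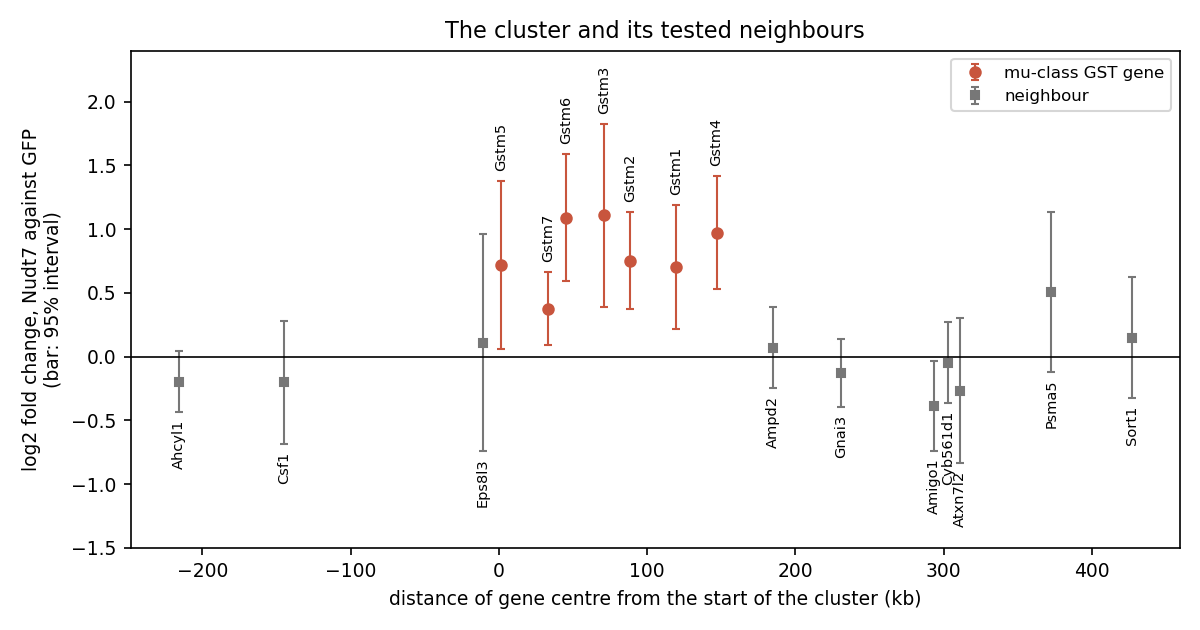
Log2 fold change, Nudt7 against GFP, of the 7 members (circles) and 10 tested neighbours (squares) against the distance of each gene's centre from the start of the cluster in kb, with 95% intervals. Members lie between 0.38 and 1.11 and the neighbours between −0.38 and 0.51.

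Glutathione S-transferases of other classes were mostly positive too, with 13 of 16 tested members above 0 and a median log2 fold change of 0.40. By edgeR 0 of 16 passed, while 6 were higher and 0 lower at p under 0.05 with no adjustment. Of all genes tested, 4.25% were higher and 4.03% lower at that unadjusted threshold. The count at the adjusted threshold was 0 by limma-voom and by DESeq2 as well. Without Nudt7 replicate 3, 11 of 16 were positive and the median fell to 0.17, while the mu-class median fell to 0.63. Gstt1, of the theta class, was at 64.3, 61.1, 117 and 80.1 CPM in Nudt7 livers and at 48.6, 46.7, 56.4 and 44.5 CPM in GFP livers, without overlap. Its log2 fold change was 0.72 (SE 0.19; edgeR adjusted p = 0.277). Gstk1, the mitochondrial and peroxisomal kappa-class gene, was at 0.64 (SE 0.21; adjusted p = 0.429), also without overlap. The third gene without overlap was the membrane-bound Mgst1 at 0.59, named after its values were seen. Groups without overlap, with Nudt7 higher, were found for 2.74% of all genes tested. Of the alpha class, Gsta4, whose enzyme acts on lipid aldehydes, was at 0.98 (SE 0.30; adjusted p = 0.375), Gsta3 at 0.58 (SE 0.32; adjusted p = 0.664) and Gsta2 at 0.40 (SE 0.31; adjusted p = 0.723). Gsta1 had too few reads to be tested, with 0 to 2.31 CPM. Gstp1, of the pi class, was at 0.39 (SE 0.37; adjusted p = 0.778), and Gstt3 at 0.87 (SE 0.30; adjusted p = 0.464). Without Nudt7 replicate 3, Gstk1 was at 0.37, Mgst1 at 0.33, Gsta3 at 0.22, Gsta2 at 0.11 and Gstp1 at −0.04.

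Genes that supply and recycle glutathione showed less difference. Of 20 tested, 14 were positive, the median was 0.11 and 0 passed by edgeR, DESeq2 or limma-voom, with 1 higher (Ggt6) and 0 lower at edgeR's unadjusted p under 0.05. At that threshold 4.25% of all genes tested were higher and 4.03% lower. Gclc and Gclm are the catalytic and modifier subunits of the enzyme that sets the rate of glutathione synthesis. Gclc was at 0.30 (SE 0.14; adjusted p = 0.600) and Gclm at −0.06 (SE 0.12; adjusted p = 0.906). Ggt6, a gamma-glutamyltransferase, was at 0.47 (SE 0.17; adjusted p = 0.485). Gpx4, the glutathione peroxidase that protects membrane lipids, was at 0.72 (SE 0.37; adjusted p = 0.643), with Nudt7 replicate 3 at 446 CPM against 113 to 146 CPM in the other 7 livers. Without that library Gpx4 was at 0.07, Gclm at 0.01 and the median of the list at 0.07, with 13 of 20 positive. Chac1, which cleaves glutathione, was lowest at −1.04 (SE 0.59; adjusted p = 0.666). Its level was low, with 0.23 to 1.40 CPM in Nudt7 livers and 0.33 to 2.48 CPM in GFP livers, which overlapped.

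Past conjugation, the steps of export and mercapturate formation were mixed, with 8 of 15 positive and a median of 0.03, which turned to −0.06 with 7 of 15 positive without Nudt7 replicate 3. By edgeR and limma-voom 0 passed, DESeq2 took 2 (Abcc3 and Nat8f2), and 5 were higher and 1 lower at edgeR's unadjusted p under 0.05. Over all genes, DESeq2 took 0.633% as higher, and 4.25% were higher and 4.03% lower at the unadjusted threshold. Abcc3, a transporter that carries conjugates into blood, was at 0.50 (SE 0.14; adjusted p = 0.325), with 357 to 492 CPM in Nudt7 livers and 275 to 327 CPM in GFP livers. Nat8f2, of the N-acetyltransferase family, was at 0.60 (SE 0.15; adjusted p = 0.201), and the transporter Abcg2 at 0.54 (SE 0.17; adjusted p = 0.400). Kyat3, a cysteine conjugate lyase, was at −0.40 (SE 0.12; adjusted p = 0.392), with 72.8 to 94.1 CPM against 99.1 to 121 CPM. These 4 genes had groups that did not overlap, as did 5.75% of all genes tested.

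NRF2 targets outside glutathione metabolism had 19 of 21 positive and a median of 0.32. By edgeR and limma-voom 0 passed, DESeq2 took 2 (Ces1g and Entpd5), and 9 were higher and 0 lower at edgeR's unadjusted p under 0.05. Over all genes, DESeq2 took 0.633% as higher, and 4.25% were higher and 4.03% lower at the unadjusted threshold. Without Nudt7 replicate 3, 16 of 21 were positive and the median was 0.16. Ces1g, a carboxylesterase, was at 39.0, 32.5, 79.5 and 56.3 CPM in Nudt7 livers and 22.2, 25.2, 25.0 and 25.6 CPM in GFP livers, or 1.08 on the log2 scale (SE 0.24; adjusted p = 0.138). Nqo1, the quinone reductase often used to read NRF2 activity, was at 0.59 (SE 0.23; adjusted p = 0.526), and Hmox1, heme oxygenase, at 0.06 (SE 0.25; adjusted p = 0.961). Tkt, a pentose phosphate enzyme, was at 0.49 (SE 0.16; adjusted p = 0.431), Entpd5 at 0.32 (SE 0.11; adjusted p = 0.464) and Blvrb, a biliverdin reductase, at 0.77 (SE 0.26; adjusted p = 0.451). NRF2 itself (Nfe2l2) was at 0.26 (SE 0.13; adjusted p = 0.600), and Keap1, which holds it in check, at 0.05 (SE 0.11; adjusted p = 0.913). Without Nudt7 replicate 3, Blvrb was at 0.38, Hmox1 at −0.20 and Keap1 at −0.01.

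Across NRF2 and its regulators 3 of 9 were positive, the median was −0.05 (−0.02 without Nudt7 replicate 3, with 3 of 9 positive) and 0 passed by edgeR, DESeq2 or limma-voom. At edgeR's unadjusted p under 0.05, 0 were higher and 2 lower, both small Maf proteins that pair with NRF2. The shares over all genes tested were 4.25% higher and 4.03% lower. Maff was at −0.88 (SE 0.23; adjusted p = 0.277), with 1.82 to 2.34 CPM against 2.76 to 4.98 CPM. Mafg was at −0.31 (SE 0.14; adjusted p = 0.590). Bach1, a repressor at the same sites, was at −0.39 (SE 0.18; adjusted p = 0.600).

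Targets of CAR and of the pregnane receptor PXR had 13 of 20 positive and a median of 0.20, which was 0.07 without Nudt7 replicate 3. By edgeR and limma-voom 0 passed, DESeq2 took 4 (Alas1, Aldh1a7, Ces2c and Cyp2c50), and 6 were higher and 1 lower at edgeR's unadjusted p under 0.05. Over all genes, DESeq2 took 0.633% as higher, and 4.25% were higher and 4.03% lower at the unadjusted threshold. Ces2c, a carboxylesterase, had the highest value of the list at 1.68 (SE 0.40; adjusted p = 0.201), with 25.1, 17.6, 37.0 and 9.58 CPM in Nudt7 livers and 3.88, 7.23, 11.2 and 5.82 CPM in GFP livers. Cyp2c50 was at 0.74 (SE 0.19; adjusted p = 0.233), Aldh1a7 at 0.71 (SE 0.19; adjusted p = 0.275) and Alas1, the first enzyme of heme synthesis, at 0.56 (SE 0.15; adjusted p = 0.276). Cyp2b10, the classic CAR target, was at −0.55 (SE 0.42; adjusted p = 0.720). Cyp3a11, the classic PXR target, was at 0.56 (SE 0.26; adjusted p = 0.600). Without Nudt7 replicate 3 they were at −0.87 and 0.32.

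The receptors showed small values, with 3 of 11 receptors and partner factors positive and a median of −0.08, which was −0.06 without Nudt7 replicate 3. By edgeR, DESeq2 and limma-voom 0 passed, and 0 were higher and 2 lower at edgeR's unadjusted p under 0.05. At that threshold 4.25% of all genes tested were higher and 4.03% lower. CAR (Nr1i3) was at 0.09 (SE 0.15; adjusted p = 0.876) and PXR (Nr1i2) at −0.05 (SE 0.13; adjusted p = 0.936). Hnf4a, a factor central to hepatocyte identity, was at −0.43 (SE 0.14; adjusted p = 0.422), with 609 to 714 CPM against 774 to 1066 CPM, without overlap. Rxrb was at −0.41 (SE 0.14; adjusted p = 0.460). PXR was at −0.12 without that library.

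The zonation lists, chosen because mu-class genes are known as pericentral, differed in their medians. Pericentral genes had 15 of 17 positive and a median of 0.36, which was 0.41 without Nudt7 replicate 3. Periportal genes had 6 of 16 positive and a median of −0.13, which was −0.15 without that library. By edgeR, DESeq2 and limma-voom 0 genes of either list passed. At edgeR's unadjusted p under 0.05, 7 pericentral genes were higher and 0 lower, and 0 periportal genes were higher and 2 lower. The shares over all genes tested were 4.25% higher and 4.03% lower. Oat, ornithine aminotransferase, was at 793 to 843 CPM in Nudt7 livers and 500 to 700 CPM in GFP livers, or 0.44 on the log2 scale (SE 0.14; adjusted p = 0.386). Tbx3, a transcription factor of pericentral cells, was at 0.78 (SE 0.26; adjusted p = 0.451), Lect2 at 0.85 (SE 0.28; adjusted p = 0.444) and Slc1a4 at 1.15 (SE 0.37; adjusted p = 0.432). Glul, glutamine synthetase, whose expression marks the innermost pericentral cells, was at 0.25 (SE 0.13; adjusted p = 0.651). Of the periportal genes, Pck1, a gluconeogenic enzyme, was at −0.57 (SE 0.23; adjusted p = 0.528) and Cps1, the first enzyme of the urea cycle, at −0.45 (SE 0.19; adjusted p = 0.573).

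**Figure D4:**
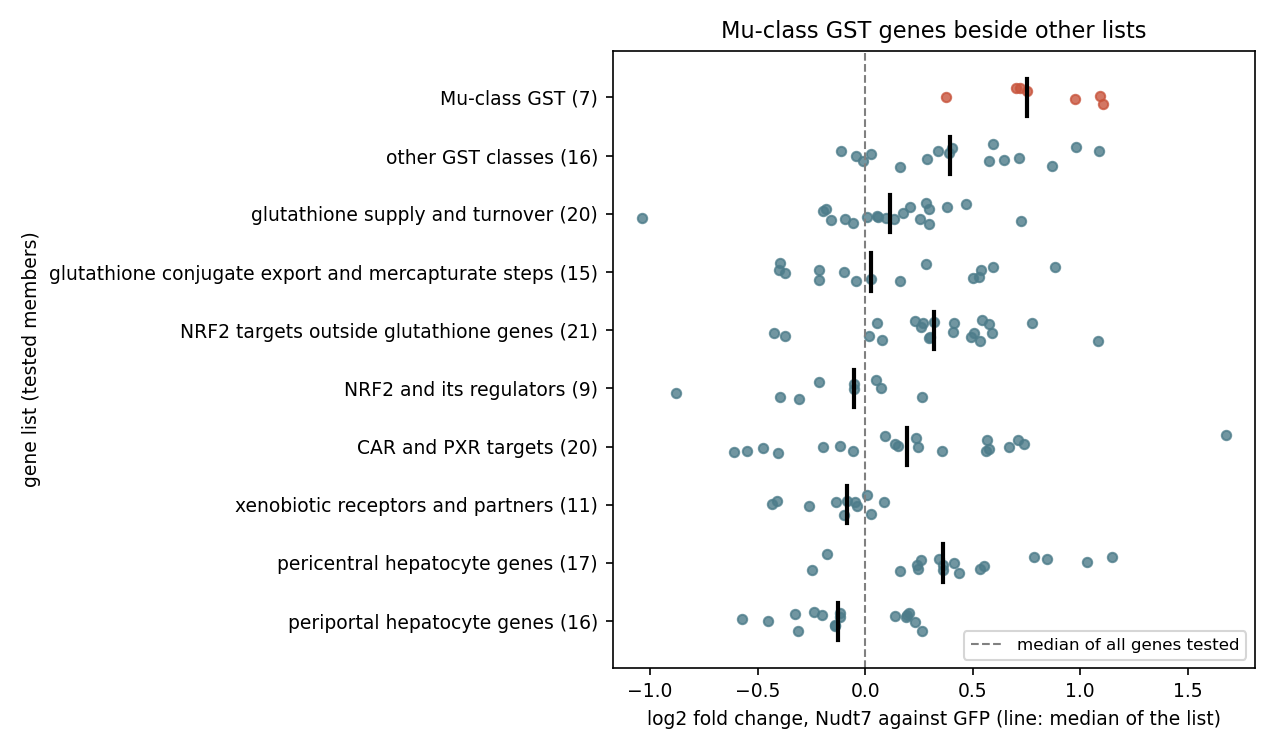
Log2 fold change, Nudt7 against GFP, of each tested gene (points) in the mu-class family and 9 other gene lists, with the number tested in brackets, the list median as a black line and the median of all genes as a dashed line. Medians run from 0.75 for the mu class and 0.40 for other classes to −0.13 for periportal genes.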

How the data were processed

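Transcripts of 8 livers were quantified by the authors. Per the submitters' processing notes the tools were FastQC, Salmon and DESeq2 and the build GRCm38; the sources used here do not give versions. Per the file headers, the deposited files hold estimated counts (expected reads, not normalized), TPM and the effective length of each transcript. Of 109282 transcripts 98.8% were named through GENCODE M21; the rest held 0.552% to 1.06% of reads and were left out. Values were summed per gene and counts rounded. TPM served for levels between genes and for the members' levels in each liver, and counts served for fold changes. The scales differ, and the family's ratio of means, Nudt7 to GFP, was 1.45 in TPM and 1.65 in CPM.

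The 2 groups were fitted with edgeR 4.0.16 (quasi-likelihood, robust, TMM, filterByExpr, two-sided, R 4.3.3) over 13678 genes, tested on simulated data. Each library is 1 mouse per the series' design text, so p-values measure the spread between mice. Alternatives were DESeq2 1.42.0, limma 3.58.1 (voom, or log2(TPM + 0.5) and log2(TPM + 0.1) with a filter at 1 TPM), other scalings, no filter, length offsets, removal of a length trend (loess span 0.3) and leaving out each liver.

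Members and lists were chosen with earlier results of these data known. Named genes are the members, up to 4 genes of each list with the smallest p, a set of well-known genes whatever their result, and the genes most like the family by Pearson r of log2 CPM (prior count 2).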

Additional observations from a re-analysis of the deposited data

Results flagged for a closer look

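Of 134 groups of 4 livers checked, 8 held 1 liver far from the other 3 by Dixon's criterion, which chance alone reaches in about 1 group in 20. Gstm2 in Nudt7 replicate 1 was at 31.2 TPM, against 29.3 to 29.4 TPM in the other Nudt7 livers. Gstm2 made up 3.68% of family TPM in Nudt7 replicate 3, against 4.87% to 4.96%. In the same liver Gpx4 was at 446 CPM, against 120 to 141 CPM in the other Nudt7 livers. Blvrb was at 150 CPM there, against 59.3 to 70.4 CPM. Gsta2 was at 13.6 CPM there, against 6.26 to 7.5 CPM. Oat in Nudt7 replicate 1 was at 793 CPM, against 840 to 843 CPM. Among the GFP livers, Ces1g in replicate 1 was at 22.2 CPM, against 25.0 to 25.6 CPM. Entpd5 in GFP replicate 3 was at 259 CPM, against 268 to 270 CPM.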

How the results depend on the processing

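In all 17 alternatives the 7 members kept a positive log2 fold change, and the family value ran from 0.54 to 0.75 over the 9 other settings and from 0.47 to 0.82 with each liver left out. The TPM fits moved the median of all genes by −0.11 (0.5 added) and −0.12 (0.1 added), and the family stood at 0.54 there. Of the 7 members, 0 passed the adjusted threshold in edgeR with 8 livers, 3 with DESeq2, 2 (Gstm4 and Gstm6) with the length trend removed, and 0 to 1 with each liver left out (Gstm4 without Nudt7 replicate 3). The family was chosen on this contrast, so nothing is read from these counts of members. Over all genes, 6 passed as higher: 85 with DESeq2, 26 with the length trend removed, 15 with no filter, 1 in each TPM fit and 1 to 8 with each liver left out. As lower 10 passed: 64 with DESeq2, 17 with the length trend removed, 6 with length offsets, 6 with upper-quartile scaling, 5 with limma-voom, 1 in each TPM fit and 1 to 12 with each liver left out. DESeq2, which called 1.11% of its genes, also called 2 export genes, 2 NRF2 targets and 4 CAR and PXR targets, where edgeR called 0. The cause of these changes was not tested. Gstm1 held 81.5% of family TPM, 81.9% of family reads, and 81.1% to 81.8% of TPM with each liver left out. No paired analysis was possible because replicate numbers were given in accession order and pair no animals. Depth limits Gstm3 and Gstm5 most, at under 100 reads per library.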
